A study of Bos taurus with 30 samples.

Results

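Solute carrier genes, named SLC with a family number, encode membrane proteins that move amino acids, sugars, metals, lipids, ions, vitamins and nucleotides into and out of cells and organelles. They were followed in the bovine corpus luteum, the ovarian gland that forms after ovulation and secretes progesterone. Of 9155 genes with a symbol on the array, 179 had an SLC symbol, and 176 of these are described here. SLC2A1, SLC2A5 and SLC16A3 were left out, and SLCO genes were not included. The genes were chosen by symbol, and where a gene had several probe sets the one with the highest mean over the 30 arrays stood for it. The symbols include 2 that are not transporters: SLC4A1AP, an adaptor protein, and SLC7A6OS, a gene opposite a transporter.

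RNA came from whole luteal tissue of 30 Angus crossbred heifers, 1 array each, with 5 heifers in each of 6 groups. Heifers on day 11 of the estrous cycle were collected at 0, 4 or 24 h, and heifers on day 4 at the same times. The 4 h and 24 h groups had received prostaglandin F2α (PGF2α), and the 0 h groups saline. As the labels give it, saline stood only at 0 h, so an effect of the time since an injection cannot be told apart from that of PGF2α. The age of the heifers and the dose are not given in the sources used here. Values are log2 signals, so that a difference of 1 is a doubling, and they are not compared between genes. In whole tissue, fewer cells of a type and less RNA per cell cannot be told apart.

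PGF2α is the hormone that ends the life of the corpus luteum: a mature gland stops making progesterone and regresses, whereas a young gland does not. Steroid-making cells depend on carriers at several places. The SLC25 family sits in the inner mitochondrial membrane and passes citrate, phosphate and nucleotides, amino acid exchangers of the SLC7 family work as pairs with the heavy subunit SLC3A2, and SLC39 and SLC30 proteins move zinc into and out of the cytosol. Some SLC proteins are known best from other cells, such as SLC11A1 from the phagosomes of macrophages.

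Array medians lay between 6.01 and 6.16. Of 9 measured markers of steroidogenic luteal cells, the mean signal ran from 12.19 to 12.38 in day 11 arrays and 12.01 to 12.10 in day 4 arrays at 0 h. At 24 h on day 11 it was 10.78 to 11.46, with 8 of the 9 lower. Day 4, 24 h replicate 1 lay closer to the mean of the day 4, 0 h arrays (root mean square distance 0.246) than to that of its own group (0.338). Day 11, 4 h replicate 1 stood apart in the 3′ minus 5′ difference of the EF1A control probe sets, at -1.40, where the other 4 arrays of its group had -2.46 to -2.28. The counts that rest on these groups are given with and without these arrays below.

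On day 11 at 24 h 72 of 176 SLC genes had changed, 39 higher and 33 lower than at 0 h. Of the called genes, amino acid carriers were 9 higher to 2 lower, metal carriers 6 to 2, and mitochondrial carriers 5 to 11. A gene is called changed at an adjusted p under 0.05, with p-values adjusted over all 24016 probe sets. By the same rule 37.9% of all 9155 genes were called, 17.9% higher and 20.0% lower, against 40.9% of the SLC genes. The 5 values of each time did not overlap for 51 SLC genes, where 27.9% of all genes had no overlap.

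The other responses were smaller. On day 11 at 4 h 16 SLC genes rose and 13 fell (23.2% of all genes called), and 27 were called when replicate 1 of the day 11 4 h group was omitted. The groups did not overlap for 13 (13.1% of all genes), and 10.1% of all genes were called higher and 13.1% lower. On day 4 at 4 h 6 rose and none fell (5.28% of all genes called, 3.29% higher and 1.99% lower), and the groups did not overlap for 16 (8.48% of all genes). At 24 h on day 4 4 rose and 5 fell (7.76% of all genes called, 3.03% higher and 4.73% lower), without overlap for 7 (6.20% of all genes). Without day 4, 24 h replicate 1 that count was 14, without day 4, 24 h replicate 2 it was 1, and it was 2 to 5 when replicate 1, 3 or 4 of the day 4 0 h group, or replicate 3 or 4 of the day 4 24 h group, was omitted. With array medians subtracted 1 rose and 5 fell. Between the days at 0 h, 28 SLC genes were higher and 38 lower on day 11 (44.5% of all genes called), without overlap for 36 (32.7% of all genes). Shares of SLC genes called were below those of all genes in 4 of these 5 comparisons and above it on day 11 at 24 h, a difference that was not tested.

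**Figure D1:**
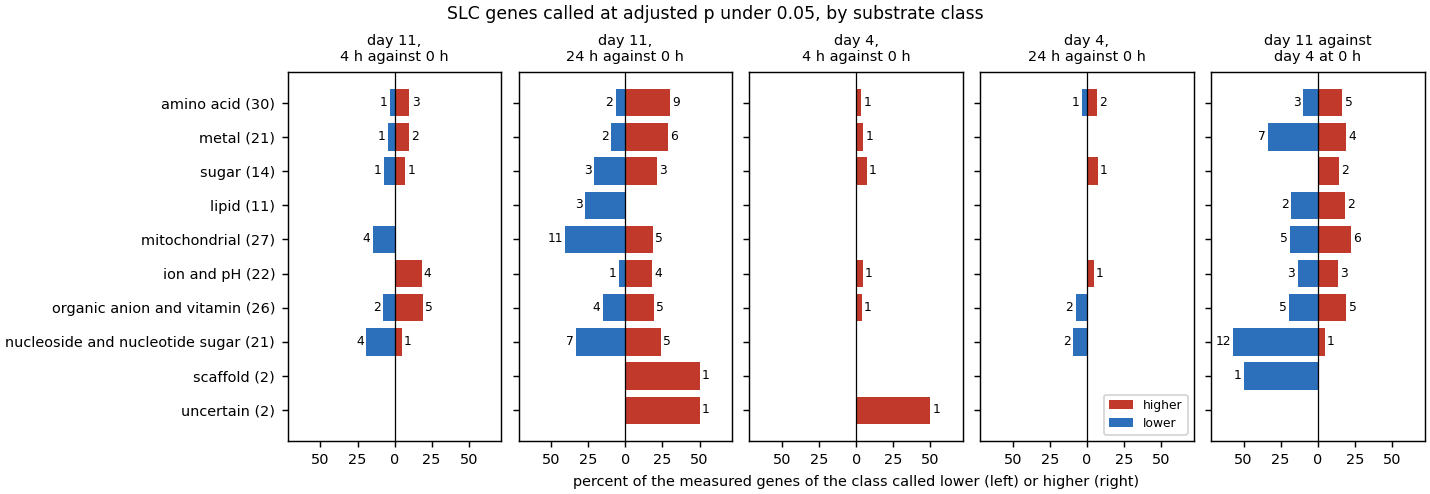
Percent of the measured SLC genes of each substrate class that were called higher (red, to the right) or lower (blue, to the left) in each comparison, with the number of genes at each bar and the size of the class in parentheses. Classes with 2 genes reach 50% with a single call. The mitochondrial class has 11 lower and 5 higher genes on day 11 at 24 h, and the amino acid class 2 and 9. Of all genes 20.0% were lower and 17.9% higher there.

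Of the 81 SLC genes called on day 11 at either time, 20 were called at both times and all in the same direction, 9 at 4 h alone and 52 at 24 h alone. Both responses are measured from the same day 11 0 h arrays, so agreement in their direction is partly built in. Being called at 1 time and not at another is not a test of the difference between the times. Of the 176 genes, 90 passed in none of the 4 responses, and 65 passed in none of the 7 comparisons made. In all, 43 genes had a mean signal among the lowest 25% of all probe sets, under 4.11, called dim here. The median SD within groups over the SLC genes was 0.20, from 0.07 for SLC25A3 to 0.61 for SLC39A8.

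Among the 30 carriers of amino acids and peptides, 9 were higher and 2 lower on day 11 at 24 h (36.7%, against 37.9% of all genes). Their median difference was 0.10, against -0.01 for all genes. SLC7A7, an exchanger of cationic and neutral amino acids, had log2 signals of 8.95, 9.27, 9.01, 9.36 and 8.97 at 24 h, against 6.73, 6.87, 7.20, 7.38 and 6.95 at 0 h. Every 24 h array lay above every 0 h array, and the difference was 2.08 ± 0.27 (SE; adjusted p = 6.6e-07), or 4.24-fold. At 4 h on day 11 its values were 6.65, 7.13, 8.51, 8.68 and 7.25, all below the 24 h range and 2 of them above the 0 h range, and the difference from 0 h was 0.62 (adjusted p = 0.12). SLC43A2, a carrier of large neutral amino acids, was at 10.32, 9.90, 9.82, 9.67 and 9.87 at 24 h, against 8.56, 8.22, 8.34, 8.20 and 7.72 at 0 h. Its arrays did not overlap, with a rise of 1.71 ± 0.14 (SE; adjusted p = 3.4e-10), and it had risen by 0.49 at 4 h, a call lost once replicate 5 of the day 11 0 h group was omitted.

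SLC7A5, the exchanger that brings leucine and other large neutral amino acids into cells, was at 9.55, 9.75, 9.92, 9.23 and 9.45 on day 11 at 24 h, against 8.40, 8.11, 9.19, 7.26 and 7.40 at 0 h. The 0 h arrays spread widely, but the lowest 24 h array lay just above the highest of them, and the rise was 1.51 ± 0.29 (SE; adjusted p = 0.00016). SLC3A2, the heavy subunit that carries SLC7A5 and SLC7A7 to the cell surface, rose by 0.54 ± 0.11 (SE; adjusted p = 0.00036) at 24 h and by 0.46 at 4 h on day 11. On day 4 SLC3A2 had 9.15, 8.96, 9.21, 9.02 and 9.28 at 4 h, against 8.40, 8.55, 8.56, 8.62 and 8.61 at 0 h, without overlap and with a rise of 0.58 ± 0.11 (SE; adjusted p = 0.0017). At 24 h on day 4 it was at 8.61 ± 0.20 (SD), a difference of 0.07 (adjusted p = 0.86). Of the genes called on day 4 at 4 h, SLC3A2, SLC20A2 and SLC46A2 were also called on day 11 at 4 h.

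The 2 neutral amino acid carriers of the SLC1 family went opposite ways on day 11. SLC1A5, which takes up glutamine, had 8.38, 8.89, 8.50, 8.85 and 8.49 at 24 h, against 7.73, 7.67, 7.51, 7.64 and 7.34 at 0 h, a rise of 1.04 ± 0.22 (SE; adjusted p = 0.00036) without overlap. SLC1A4, which carries serine and alanine, had 6.13, 6.40, 6.35, 6.58 and 6.08 at 24 h, against 8.18, 6.82, 8.02, 7.71 and 7.01 at 0 h, and fell by 1.24 ± 0.18 (SE; adjusted p = 2.9e-06), also without overlap. The second probe set of SLC1A4 had a difference of -0.53, and it too was called. On day 4 SLC1A5 had 9.18, 7.85, 8.10, 7.55 and 8.42 at 24 h, against 9.26, 8.94, 9.03, 9.39 and 9.08 at 0 h, a fall of 0.92 ± 0.22 (SE; adjusted p = 0.012) with overlapping groups. That fall was not called once replicate 2 or 4 of the day 4 24 h group was omitted. The 24 h change of SLC1A5 differed between the days by 1.96 ± 0.30 (SE; adjusted p = 1.8e-05).

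Other members moved as well. SLC66A1, which releases cationic amino acids from lysosomes, rose by 0.87, SLC15A4, a histidine and peptide carrier of immune cells, by 0.66, and SLC38A7, a glutamine carrier, by 0.33. SLC43A1, a relative of SLC43A2, rose by 0.40, and SLC3A1, a heavy subunit with a dim probe set, fell, with a difference of -0.36. SLC38A2, a neutral amino acid carrier of many tissues, had 11.14 ± 0.13 (SD) at 24 h and 11.12 ± 0.31 (SD) at 0 h on day 11. Its difference was 0.02, with a 95% interval of -0.20 to 0.23. SLC7A1, an arginine carrier, differed by -0.10 (-0.39 to 0.18), and SLC6A8, the creatine carrier, by 0.13 (-0.14 to 0.39). Another probe set of SLC6A8 was called against the direction of this one in 1 or more of the comparisons made. On day 4 SLC6A6, the taurine carrier, rose by 0.80 ± 0.19 (SE; adjusted p = 0.012) at 24 h without overlap, a call lost once replicate 2 of the day 4 24 h group was omitted. The 24 h change of SLC6A6 differed between the days by -1.04.

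Genes of the amino acid response, which cells switch on when amino acids run short and whose targets include several amino acid carriers, were read beside these carriers. Of 22 genes in that list 19 were measured. On day 11 at 24 h 12 were lower and 3 higher (78.9%, against 37.9% of all genes called), with a median of -0.86. PHGDH, which starts serine synthesis, had a difference of -2.01, DDIT4, an inhibitor of mTORC1, -1.98, and NUPR1, a stress-induced regulator, 1.81. On day 4 at 24 h 3 of the 19 were lower (15.8%, against 7.76% of all genes called), led by GPT2, an alanine aminotransferase, at -0.94. On day 11 at 4 h 2 were higher and 1 lower of the 19 (15.8%, against 23.2% of all genes called), with a median of -0.18. ATF4, the transcription factor of that response, was higher by 0.48 and PHGDH lower, at -0.70.

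**Figure D2:**
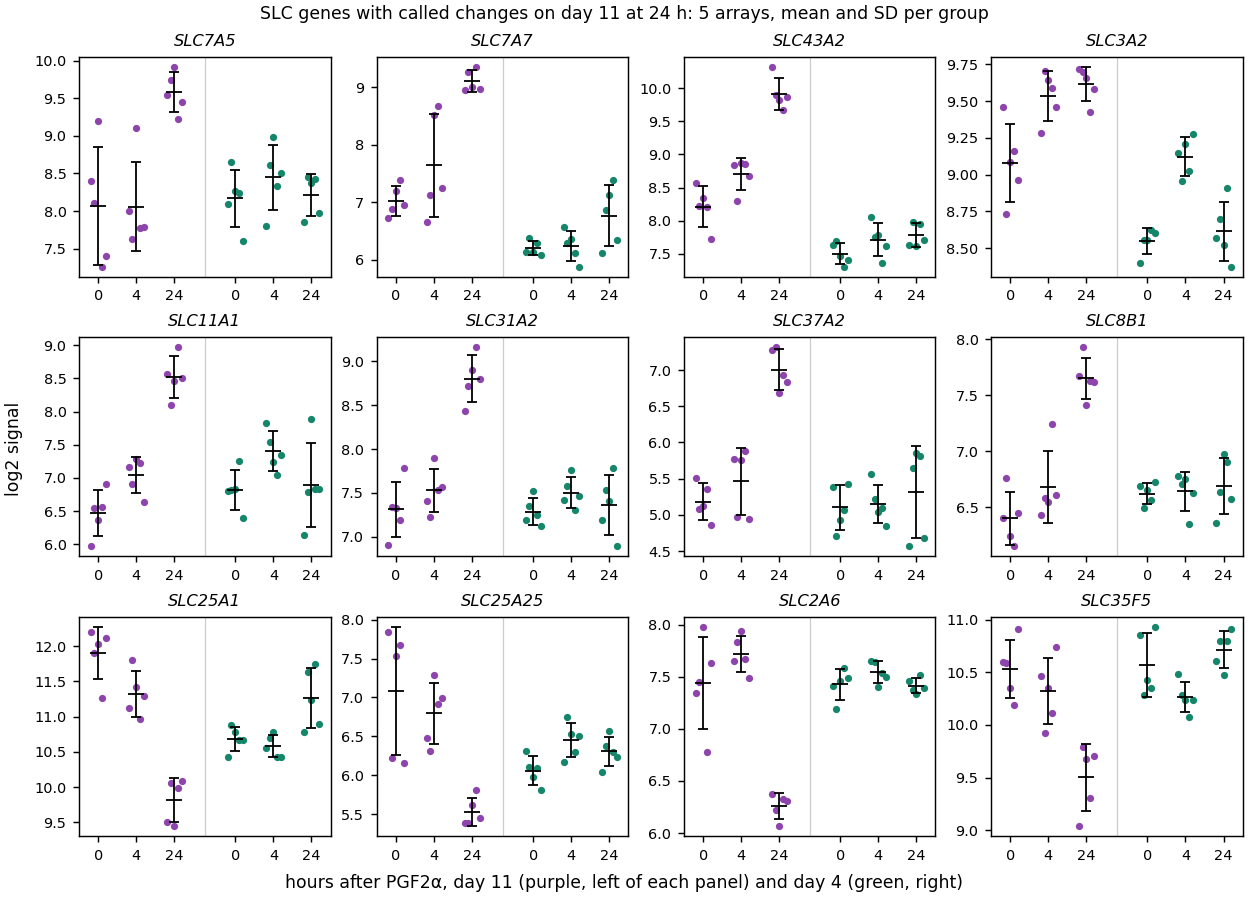
Log2 signal of 12 SLC genes in each of the 30 arrays at 0, 4 and 24 h, with day 11 in purple on the left of each panel and day 4 in green on the right. Points are arrays, bars are the group mean and SD (n = 5). SLC7A7 averaged 9.11 and SLC11A1 8.52 on day 11 at 24 h, above all their other groups, and SLC25A1 averaged 9.82, below all its other groups.

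Of the 21 metal carriers 6 rose and 2 fell on day 11 at 24 h (38.1%, against 37.9% of all genes called). SLC11A1, which pumps divalent metals out of the phagosome in macrophages and neutrophils, had 8.56, 8.09, 8.46, 8.98 and 8.50 at 24 h, against 5.97, 6.55, 6.36, 6.57 and 6.90 at 0 h. The arrays did not overlap, and the rise was 2.05 ± 0.23 (SE; adjusted p = 4e-08), or 4.13-fold. SLC31A2, a copper transporter of endosomes and lysosomes, was at 8.43, 8.71, 8.91, 9.17 and 8.80 at 24 h, against 6.91, 7.35, 7.33, 7.19 and 7.78 at 0 h. It rose by 1.49 ± 0.16 (SE; adjusted p = 1.9e-08), again without overlap. Its relative SLC31A1, which takes up copper at the cell surface, differed by -0.04 on day 11 at 24 h, with a 95% interval of -0.24 to 0.17.

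Markers of several cell types moved at the same time. Of 8 measured macrophage markers 5 were higher on day 11 at 24 h, and the mean signal of the list ran from 9.70 to 10.47 at 24 h, against 8.13 to 8.87 at 0 h. MSR1, a scavenger receptor, was higher by 2.27 and CD14, a lipopolysaccharide receptor, by 2.60, while C1QA, C1QB and C1QC differed by 0.74, 0.61 and 0.65 without passing the test. Of 10 T and NK cell markers 7 were higher (6.06 to 6.68 at 24 h, against 5.26 to 5.64 at 0 h), and of 7 neutrophil markers 3 (6.33 to 7.21 at 24 h, against 5.16 to 5.55 at 0 h). Erythroid markers, 5 measured, lay at 3.79 to 4.10 at 24 h and 3.85 to 4.31 at 0 h, and SLC4A1, the anion exchanger of red cells, at 3.13 and 3.27. Fibroblast markers were higher in 4 of 10 (10.68 to 11.11 at 24 h, against 10.12 to 10.53 at 0 h), endothelial markers higher in 1 and lower in 3 of 9, and pericyte and smooth muscle markers higher in 1 and lower in 1 of 9. Of all genes 37.9% were called in this comparison, 17.9% higher and 20.0% lower. The share of endothelial markers called (44.4%) lay near that of all genes, and that of pericyte and smooth muscle markers was 22.2%. In 4 lists all called markers were higher, where 17.9% of all genes were. These shares were 40% for fibroblast, 42.9% for neutrophil, 62.5% for macrophage and 70% for T and NK cell markers. The part of these cells in the rise of SLC11A1, SLC31A2, SLC7A7, SLC15A4 and SLC37A2 was not tested.

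Zinc carriers of the SLC39 family did not share a direction. SLC39A8, which imports zinc and manganese, had 9.98, 9.98, 10.85, 11.16 and 11.01 on day 11 at 4 h, against 8.71, 8.46, 9.66, 9.73 and 9.63 at 0 h, without overlap and with a rise of 1.36 ± 0.36 (SE; adjusted p = 0.008). At 24 h it was higher than at 0 h by 1.01 ± 0.36 (SE; adjusted p = 0.034), a call lost once replicate 1 or 2 of the day 11 0 h group, or replicate 2 or 3 of the day 11 24 h group was omitted. SLC39A14, which imports zinc and iron not bound to transferrin, had 10.16, 9.55, 9.97, 9.49 and 9.76 on day 4 at 4 h, against 8.99, 9.04, 8.87, 9.01 and 8.49 at 0 h. It rose there by 0.90 ± 0.18 (SE; adjusted p = 0.0025) without overlap. On day 11 SLC39A14 was already at 9.96 ± 0.36 (SD) at 0 h, against 8.88 ± 0.23 (SD) on day 4, and its 4 h difference there was 0.28 (adjusted p = 0.32). The 4 h changes of SLC39A14 were not found to differ between the days (-0.62, adjusted p = 0.3). SLC39A6, SLC39A13 and SLC39A2 were higher on day 11 at 24 h by 0.37, 0.31 and 0.43, and SLC39A9 and SLC39A11 lower, at -0.40 and -0.34. The second probe set of SLC39A9 differed by -0.03. The call for SLC39A2 was lost once replicate 1, 3 or 4 of the day 11 0 h group, or replicate 1 or 2 of the day 11 24 h group was omitted.

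SLC11A2, which moves iron across cell and endosome membranes, rose by 0.62 on day 11 at 4 h, a call lost once replicate 1, 2 or 4 of the day 11 0 h group, or replicate 1 or 3 of the day 11 4 h group was omitted, and differed by -0.37 (adjusted p = 0.19) at 24 h. Of 17 measured genes of metal handling, 5 were higher and 12 not called at 4 h on day 11 (median 0.03), and 9 were higher and 8 not called at 24 h (median 0.42), with none lower. These are 29.4% at 4 h and 52.9% at 24 h, where 10.1% and 17.9% of all genes were called higher. No test linked the genes of metal handling to the metal carriers. The metallothioneins MT2A and MT1A, which bind zinc and copper, were higher at 24 h by 3.13 and 3.12, and HMOX1, which frees iron from heme, by 2.90. On day 4 MT2A rose by 1.18 at 4 h, the single gene of that list called there, where 5.28% of all genes were called.

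In the mitochondrial SLC25 family of 27 genes 11 fell and 5 rose on day 11 at 24 h, with a median of -0.27, and 4 fell at 4 h. These are 59.3% at 24 h and 14.8% at 4 h, against 37.9% and 23.2% of all genes called. SLC25A1, which exports citrate from mitochondria for the synthesis of fatty acids and cholesterol, had 9.51, 10.06, 9.44, 9.98 and 10.09 at 24 h, against 12.20, 11.91, 12.03, 11.27 and 12.12 at 0 h. It fell by 2.09 ± 0.19 (SE; adjusted p = 8.7e-10), or 4.26-fold, without overlap. On day 4 its values were 10.78, 11.64, 11.24, 11.75 and 10.90 at 24 h, against 10.43, 10.87, 10.77, 10.67 and 10.66 at 0 h, overlapping groups with a difference of 0.58 (adjusted p = 0.067). The 24 h change differed between the days by -2.67 ± 0.26 (SE; adjusted p = 2.3e-08), the largest such difference among the SLC genes in the fit to all arrays. SLC25A25, a calcium-regulated carrier of ATP-magnesium and phosphate, had 5.39, 5.38, 5.62, 5.81 and 5.44 at 24 h, against 7.84, 6.22, 7.53, 7.68 and 6.16 at 0 h on day 11. It fell by 1.56 ± 0.24 (SE; adjusted p = 8.8e-06) without overlap, and its second probe set differed by -0.73 and was called.

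SLC25A15, the ornithine carrier, fell by 1.14 ± 0.19 (SE; adjusted p = 3.5e-05) at 24 h without overlap, after a difference of -0.91 at 4 h. SLC25A11, which exchanges oxoglutarate for malate, fell, with differences of -0.40 at 4 h and -0.62 at 24 h. At 4 h its second probe set differed by 0.04, and the mean of both was not called. That second probe set was dim, with a mean of 3.31 over the arrays, against 9.05 for the first. SLC25A3, which imports the phosphate for ATP synthesis, fell by 0.37 ± 0.06 (SE; adjusted p = 1.6e-05), where the SD within groups was 0.07. Falls were also called for SLC25A29, a carrier of basic amino acids, at -0.60, SLC25A33, a pyrimidine nucleotide carrier, at -0.51, and SLC25A37, which imports iron, at -0.34. SLC25A28, a relative of SLC25A37 that also imports iron, rose by 0.65, and SLC25A17, a member of the family that sits in peroxisomes, by 0.76. SLC25A51, which imports NAD, rose by 0.38.

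The ADP/ATP carriers SLC25A4, SLC25A5 and SLC25A6, close relatives, gave mixed readings. SLC25A4 fell by 0.44 ± 0.10 (SE; adjusted p = 0.0006) on day 11 at 24 h. SLC25A5 rose by 0.44 there, with 0.31 for its second probe set. Between the days at 0 h the probe sets of SLC25A5 contradicted each other, at 0.43 and -0.97, both called, and no direction is given for it. SLC25A6 also had probe sets that differed in direction on day 11 at 24 h, at -0.07 for the brightest and 0.18 and 0.38 for the others. SLC25A20, which brings acylcarnitines in for fatty acid oxidation, differed by -0.28 (95% interval -0.51 to -0.05, adjusted p = 0.057). Its second probe set also differed by -0.28 and was called there. At 4 h on day 11 the second probe set was called at -0.31, and the brighter one, at -0.13, was not.

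Of 14 sugar carriers 3 rose and 3 fell on day 11 at 24 h (42.9%, against 37.9% of all genes called). SLC37A2, a sugar-phosphate exchanger of the endoplasmic reticulum, had 7.27, 7.32, 6.69, 6.93 and 6.83 at 24 h, against 5.51, 5.08, 5.12, 5.36 and 4.85 at 0 h. It rose by 1.83 ± 0.23 (SE; adjusted p = 4.7e-07), or 3.54-fold, and its relative SLC37A1 by 0.66. SLC2A6, a member of the glucose transporter family found on lysosomes, had 6.38, 6.22, 6.07, 6.33 and 6.30 at 24 h, against 7.35, 7.45, 7.98, 6.78 and 7.64 at 0 h. It fell by 1.18 ± 0.13 (SE; adjusted p = 5.8e-08) without overlap, and at 4 h it was at 7.72 ± 0.17 (SD). SLC2A8, an intracellular glucose transporter, fell, with a difference of -0.40, and SLC2A4, the insulin-responsive one, rose by 0.23.

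SLC5A11, which takes up myo-inositol with sodium, moved in opposite directions on the 2 days at 24 h. On day 11 it had 5.41, 5.57, 5.37, 5.48 and 5.61 at 24 h, against 6.15, 5.75, 5.98, 6.98 and 6.45 at 0 h, and fell by 0.77 ± 0.21 (SE; adjusted p = 0.006) without overlap. On day 4 it had 5.01, 5.78, 5.54, 6.53 and 5.48 at 24 h, against 4.81, 4.69, 4.79, 5.20 and 5.28 at 0 h, and rose by 0.72 ± 0.21 (SE; adjusted p = 0.047) with overlapping groups, a call lost with quantile normalization, with array medians subtracted, and once replicate 1, 2, 3 or 4 of the day 4 0 h group, or replicate 2, 3 or 4 of the day 4 24 h group was omitted. The changes differed between the days by -1.49 ± 0.30 (SE; adjusted p = 0.00049). SLC2A3, best known as the glucose transporter of neurons, rose by 0.37 ± 0.09 (SE; adjusted p = 0.014) on day 4 at 4 h with dim signals of 3.68 at 4 h and 3.31 at 0 h, a call lost once replicate 5 of the day 4 4 h group was omitted. Of 10 measured genes of hexose phosphorylation and storage, 4 were lower on day 11 at 4 h, and 2 were higher and 4 lower at 24 h. These are 40% and 60%, against 23.2% and 37.9% of all genes called. HK3, a hexokinase of blood cells, was higher by 2.29 and PYGM, a glycogen phosphorylase, lower at -1.05.

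The lipid class held 11 genes, 6 of them dim, and 27.3% were called on day 11 at 24 h, against 37.9% of all genes. On day 11 at 24 h 3 fell: SLC27A6, a fatty acid transport protein, with -0.51, SLC44A2, a choline carrier, with -0.39, and SLC27A5, known from bile acid activation in liver, with -0.29, a call lost once replicate 1, 3 or 4 of the day 11 0 h group, or replicate 3 of the day 11 24 h group was omitted. SLC27A6 had a mean of 2.36 at 24 h and 2.87 at 0 h, in the dim range. At 4 h on either day and at 24 h on day 4 the limma test called 0 of the 11, with 3, 0 and 2 at an unadjusted p under 0.05 on day 11 at 4 h, day 4 at 4 h and day 4 at 24 h. In that order 23.2%, 5.28% and 7.76% of all genes were called. SLC27A1, a fatty acid transport protein, differed on day 11 at 24 h by -0.08 (95% interval -0.34 to 0.18). Outside the SLC genes, of 14 measured genes of fatty acid binding and activation 6 were higher and 6 lower there (85.7%, against 37.9% of all genes). FABP4, a fatty acid binding protein of adipocytes and macrophages, was higher by 4.14, FABP5 by 2.45 and CD36, a fatty acid receptor, by 2.33.

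**Figure D3:**
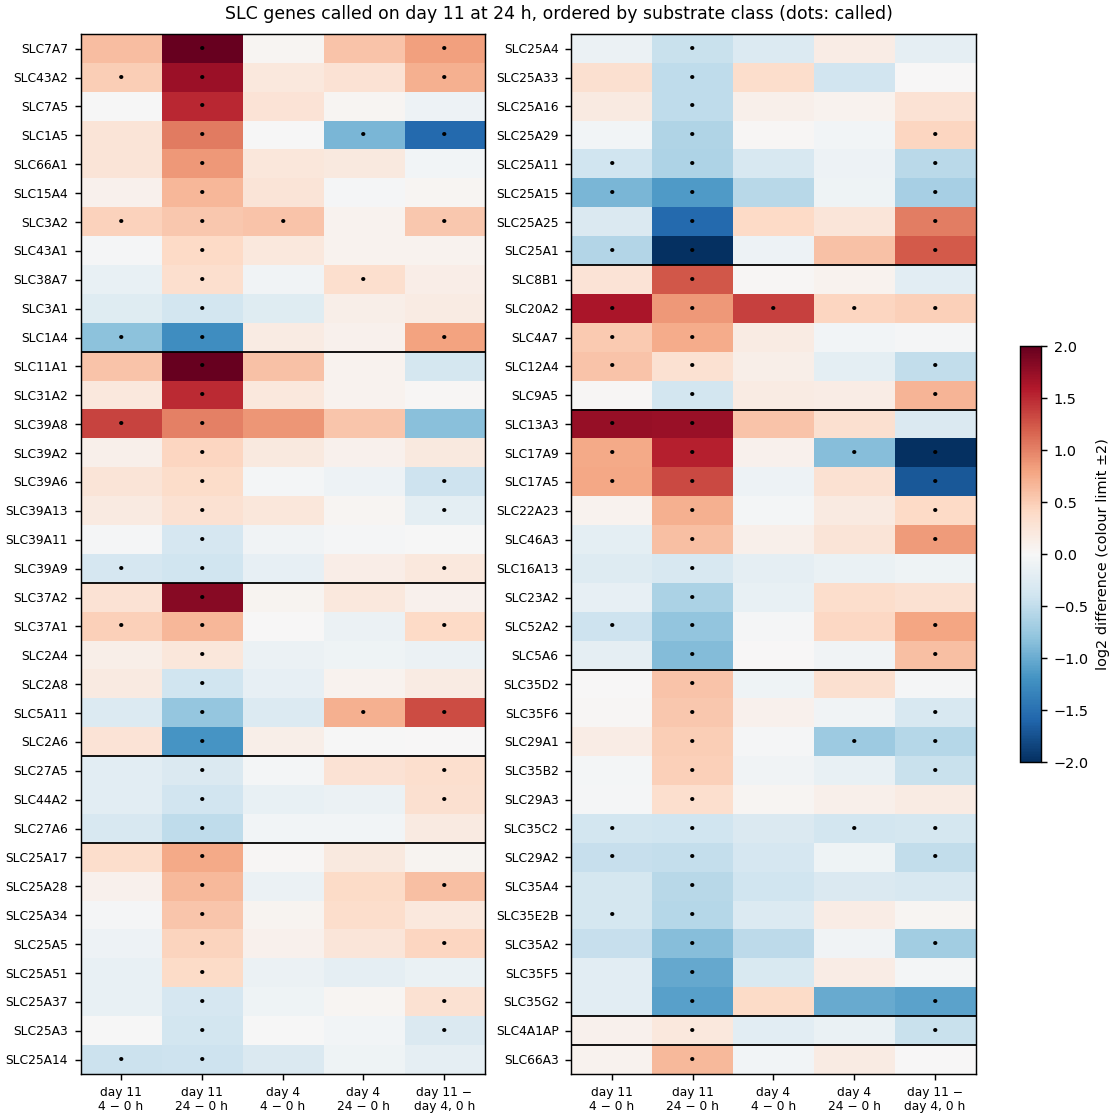
Log2 differences (colour, red higher and blue lower, limited to ±2) of the 72 SLC genes called on day 11 at 24 h in the 4 responses and between the days at 0 h. Dots mark called differences and lines separate the substrate classes, in the order amino acid, metal, sugar, lipid and mitochondrial on the left, and mitochondrial, ion and pH, organic anion and vitamin, nucleoside and nucleotide sugar, scaffold and uncertain on the right. The column of day 4 at 24 h holds 7 dots, of which SLC1A5, SLC17A9, SLC29A1 and SLC5A11 have the opposite colour from day 11 at 24 h.

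Among 22 ion and pH carriers 4 rose on day 11 at 4 h, and 4 rose and 1 fell at 24 h. SLC20A2, a sodium-phosphate cotransporter, had 8.77, 8.53, 9.05, 8.70 and 8.92 on day 11 at 4 h, against 7.07, 7.08, 7.45, 7.03 and 7.21 at 0 h, a rise of 1.63 ± 0.13 (SE; adjusted p = 1.6e-10). On day 4 it had 8.24, 7.84, 8.42, 7.83 and 7.93 at 4 h, against 6.69, 6.46, 6.77, 6.68 and 6.86 at 0 h, a rise of 1.36 ± 0.13 (SE; adjusted p = 2.1e-08). Neither pair of groups overlapped, and the difference between the days was 0.27 (adjusted p = 0.62). At 24 h SLC20A2 was still higher than at 0 h, by 0.86 on day 11 and 0.42 on day 4. The day 4 value at 24 h was not called with array medians subtracted or once replicate 1, 2, 3 or 4 of the day 4 0 h group, or replicate 2, 3, 4 or 5 of the day 4 24 h group was omitted.

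SLC12A2, which brings sodium, potassium and chloride into cells, had 6.46, 6.89, 7.04, 6.39 and 7.63 on day 11 at 4 h, against 5.18, 5.43, 5.44, 5.71 and 5.61 at 0 h. It rose by 1.40 ± 0.18 (SE; adjusted p = 2e-06) without overlap and was back at 5.43 ± 0.09 (SD) at 24 h. On day 4 it had 6.32 ± 0.20 (SD) at 4 h and 6.02 ± 0.27 (SD) at 0 h, and the 4 h change was larger on day 11 by 1.11 ± 0.26 (SE; adjusted p = 0.027), a call lost once replicate 1 or 3 of the day 4 0 h group, or replicate 5 of the day 4 4 h group, or replicate 1 of the day 11 0 h group was omitted. SLC12A4, which moves potassium and chloride out, rose by 0.57 at 4 h and SLC4A7, which imports bicarbonate, by 0.52. SLC8B1, the sodium/calcium exchanger of mitochondria, had 7.67, 7.93, 7.41, 7.62 and 7.62 on day 11 at 24 h, against 6.41, 6.77, 6.25, 6.15 and 6.45 at 0 h, and rose by 1.25 ± 0.14 (SE; adjusted p = 3.6e-08) without overlap. At 4 h on day 11 endothelial markers were higher in 5 of 9 (7.38 to 7.88 at 4 h, against 7.18 to 7.45 at 0 h) and neutrophil markers in 3 of 7 (5.84 to 6.94 at 4 h, against 5.16 to 5.55 at 0 h). Among the other lists 1 of 8 macrophage markers was higher, 2 of 9 luteal and 1 of 10 fibroblast markers were lower, and pericyte and smooth muscle markers were higher in 2 and lower in 1 of 9. Of all genes 23.2% were called in this comparison, 10.1% higher and 13.1% lower. On day 4 at 4 h 3 of 9 endothelial markers were higher, where 5.28% of all genes were called. Higher too were 1 of 8 macrophage, 1 of 7 neutrophil and 1 of 9 pericyte and smooth muscle markers. Lower were 1 of 9 luteal and 1 of 10 T and NK cell markers. At 24 h on day 4, 2 of 9 luteal and 1 of 9 pericyte and smooth muscle markers were higher, where 7.76% of all genes were called. The part of these cell types in the changes of SLC genes at 4 h, and on day 4 at 24 h, was not tested. Of 9 measured subunits of the sodium pump and partners of transporters, ATP1B1 and ATP1B3, pump subunits, fell on day 11 at 24 h, with -0.80 and -0.85, and FXYD5, a pump modulator, rose by 1.02. These are 33.3% of that list, against 37.9% of all genes called.

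Of 26 carriers of organic anions and vitamins 5 rose and 4 fell on day 11 at 24 h (34.6%, against 37.9% of all genes called). SLC13A3, a sodium-dicarboxylate cotransporter, followed day 11 with 5.03, 4.71, 5.10, 5.02 and 5.59 at 0 h, 6.78, 6.99, 6.73, 6.77 and 6.86 at 4 h and 7.23, 6.59, 6.64, 6.69 and 6.92 at 24 h. It rose by 1.74 ± 0.22 (SE; adjusted p = 1.2e-06) at 4 h and by 1.72 ± 0.22 (SE; adjusted p = 4.3e-07) at 24 h, with no overlap with 0 h at either time. SLC17A9, which loads ATP into vesicles, had 7.95, 7.77, 7.82, 8.19 and 7.89 at 24 h, against 5.91, 6.96, 6.12, 6.70 and 6.19 at 0 h, a rise of 1.55 ± 0.21 (SE; adjusted p = 1.2e-06). On day 4 it went the other way, with 8.36, 7.58, 7.73, 7.20 and 8.20 at 24 h, against 9.05, 8.29, 8.29, 8.75 and 8.99 at 0 h, a fall of 0.86 ± 0.21 (SE; adjusted p = 0.015) with overlapping groups. That fall was not called once replicate 1 of the day 4 0 h group, or replicate 2 or 4 of the day 4 24 h group was omitted. The difference between the days was 2.41 ± 0.30 (SE; adjusted p = 7.1e-07). SLC17A5, which releases sialic acid from lysosomes, rose by 0.78 at 4 h and 1.33 ± 0.22 (SE; adjusted p = 1.8e-05) at 24 h on day 11.

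SLC46A2, a relative of the folate transporter known from the thymus, had 6.59, 5.96, 5.15, 5.70 and 5.52 on day 11 at 4 h, against 4.18, 4.34, 4.51, 4.55 and 4.41 at 0 h. On day 4 it had 5.77, 5.19, 5.24, 4.61 and 4.67 at 4 h, against 3.88, 3.86, 4.21, 3.79 and 3.82 at 0 h. Both pairs of groups were apart, with rises of 1.39 ± 0.22 (SE; adjusted p = 3.7e-05) on day 11 and 1.18 ± 0.22 (SE; adjusted p = 0.0012) on day 4, and neither passed at 24 h, with 0.12 and 0.10 from 0 h. The 0 h signals lay near 4.11, the upper edge of the dim range. SLC17A2, a phosphate and anion carrier, had 3.95, 4.18, 5.18, 4.17 and 3.63 on day 11 at 4 h, against 3.50, 3.32, 3.31, 3.20 and 3.27 at 0 h, a rise of 0.90 ± 0.17 (SE; adjusted p = 0.00024) from a dim signal. Its 4 h change was larger on day 11 by 0.94 ± 0.23 (SE; adjusted p = 0.042), a call lost once replicate 1, 3, 4 or 5 of the day 4 0 h group, or replicate 1, 2, 4 or 5 of the day 4 4 h group, or replicate 2, 3, 4 or 5 of the day 11 0 h group, or replicate 4 of the day 11 4 h group was omitted.

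SLC5A6, which takes up biotin and pantothenate, fell by 0.87 ± 0.14 (SE; adjusted p = 9.5e-06), SLC52A2, a riboflavin carrier, had a difference of -0.78 and SLC23A2, which takes up ascorbate, -0.63. All 3 probe sets of SLC52A2 were called lower at 24 h. SLC46A1, the proton-coupled folate carrier, fell at 4 h, with -0.66. On day 4 SLC22A5, which takes up carnitine, fell by 0.93 ± 0.25 (SE; adjusted p = 0.023) at 24 h, but its second probe set differed by -0.23 and the mean of both was not called. The call was also lost once replicate 2 or 3 of the day 4 0 h group, or replicate 2 or 4 of the day 4 24 h group was omitted. SLC16A1, a lactate and pyruvate carrier, did not pass in any response, with differences of 0.08 at 4 h and -0.28 at 24 h on day 11.

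Among 21 carriers of nucleosides and nucleotide sugars 5 rose and 7 fell on day 11 at 24 h (57.1%, against 37.9% of all genes called). SLC35F5, a member of the nucleotide sugar family without an agreed substrate, had 9.04, 9.79, 9.68, 9.30 and 9.70 at 24 h, against 10.60, 10.59, 10.35, 10.19 and 10.91 at 0 h, a fall of 1.03 ± 0.16 (SE; adjusted p = 1.1e-05) without overlap. SLC35A2, which brings UDP-galactose into the Golgi, fell by 0.86 ± 0.18 (SE; adjusted p = 0.00055), and SLC35B2, which brings in the sulphate donor, rose by 0.47. SLC29A1, which lets adenosine and other nucleosides cross the cell membrane, had 11.33, 11.12, 10.93, 11.42 and 11.20 at 24 h, against 10.91, 10.67, 10.39, 10.91 and 10.66 at 0 h, a rise of 0.49 ± 0.16 (SE; adjusted p = 0.018) on day 11 that was not called once replicate 3 of the day 11 0 h group, or replicate 4 of the day 11 24 h group was omitted. On day 4 it had 10.93, 10.73, 10.29, 9.89 and 10.86 at 24 h, against 11.53, 11.12, 11.18, 11.35 and 11.19 at 0 h, a fall of 0.73 ± 0.16 (SE; adjusted p = 0.0078) without overlap. The changes differed between the days by 1.23 ± 0.23 (SE; adjusted p = 0.00015). SLC33A1, which brings acetyl-CoA into the endoplasmic reticulum, rose by 0.43 on day 11 at 4 h.

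**Figure D4:**
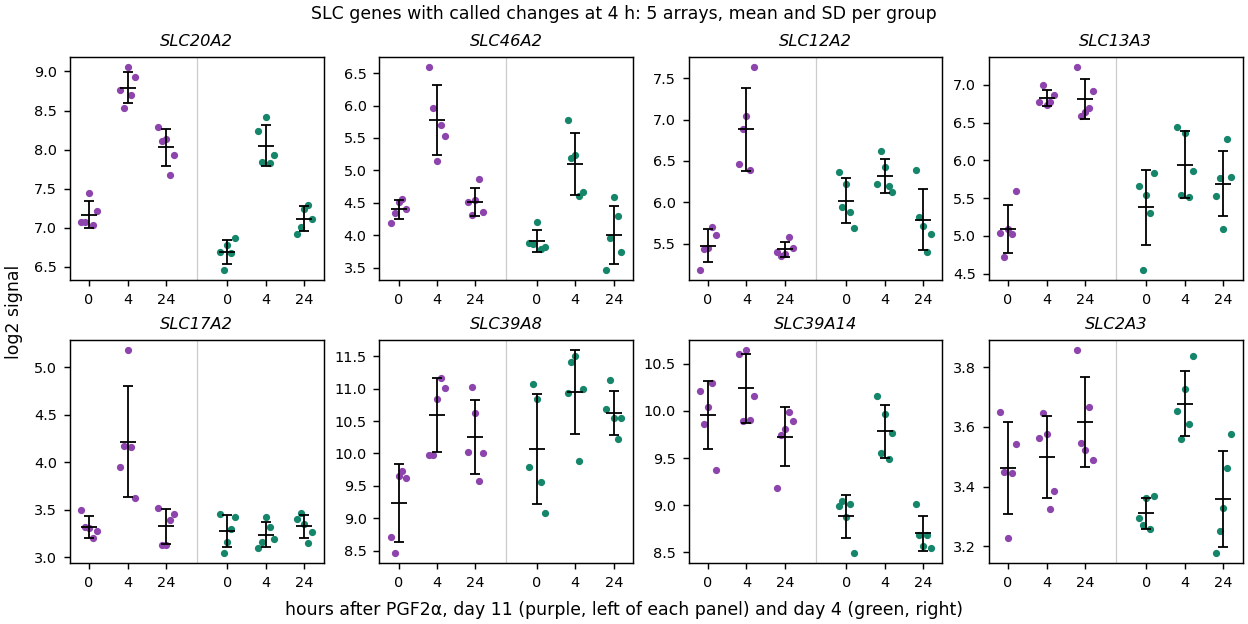
Log2 signal of 8 SLC genes in each of the 30 arrays at 0, 4 and 24 h, with day 11 in purple on the left of each panel and day 4 in green on the right. Points are arrays, bars are the group mean and SD (n = 5). SLC20A2 and SLC46A2 are higher at 4 h on both days, and SLC12A2 averages 6.88 on day 11 at 4 h and 6.32 on day 4 at 4 h.

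The remaining 4 genes fell outside these classes. SLC66A2, whose substrate is not agreed, rose by 0.33 ± 0.09 (SE; adjusted p = 0.038) on day 4 at 4 h, a call lost with quantile normalization, with array medians subtracted, and once replicate 1, 2, 4 or 5 of the day 4 0 h group, or replicate 2, 3, 4 or 5 of the day 4 4 h group was omitted. Its relative SLC66A3 rose by 0.65 on day 11 at 24 h. SLC4A1AP, the adaptor protein, rose by 0.21 there, a call lost with array medians subtracted, with array weights, and once replicate 4 or 5 of the day 11 0 h group, or replicate 1 or 3 of the day 11 24 h group was omitted. SLC7A6OS was called in none of the comparisons, with a difference of -0.08 on day 11 at 24 h (95% interval -0.24 to 0.09).

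The glands of saline heifers already differed between the days. At 0 h 28 SLC genes were higher on day 11 and 38 lower, where 17.9% and 26.5% of all genes were. Carriers of nucleosides and nucleotide sugars were mostly lower on day 11, 12 of 21 against 1 higher, with a median of -0.33 against -0.02 for all genes. SLC35B1, a carrier of the endoplasmic reticulum, differed by -0.84, SLC35E3 by -0.86 and SLC35A2 by -0.70. SLC17A9 was at 5.91, 6.96, 6.12, 6.70 and 6.19 on day 11, against 9.05, 8.29, 8.29, 8.75 and 8.99 on day 4. All day 11 arrays lay below all day 4 arrays, with a difference of -2.30 ± 0.21 (SE; adjusted p = 5.7e-09), or 4.91-fold lower. SLC17A5 differed by -1.70 ± 0.22 (SE; adjusted p = 6.1e-07), SLC1A5 by -1.56 ± 0.22 (SE; adjusted p = 1.8e-06) and SLC16A1 by -1.23 ± 0.18 (SE; adjusted p = 3.7e-06), and none of these overlapped.

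SLC25A1 and SLC5A11 were higher on day 11. SLC25A1 had 12.20, 11.91, 12.03, 11.27 and 12.12 on day 11, against 10.43, 10.87, 10.77, 10.67 and 10.66 on day 4, a difference of 1.23 ± 0.19 (SE; adjusted p = 7.4e-06). SLC5A11 was higher by 1.31 ± 0.21 (SE; adjusted p = 1.9e-05) and SLC39A14 by 1.07 ± 0.18 (SE; adjusted p = 2.5e-05), both without overlap. In the SLC25 family 6 were higher and 5 lower, the higher ones including SLC25A5 with its contradicting probe sets. SLC25A12, which exchanges aspartate for glutamate, was lower on all 3 of its probe sets, with -0.96 for the brightest. Of 21 metal carriers 4 were higher and 7 lower, the higher ones including SLC39A9, whose probe sets contradicted each other (0.21 and -0.52, both called), and the lower ones including the zinc carriers SLC30A6 at -0.83, SLC39A7 at -0.50 and SLC39A6 at -0.41. Macrophage markers were higher on day 11 in 5 of 8 (8.13 to 8.87 on day 11, against 7.13 to 7.24 on day 4). SLC7A7 was higher by 0.82, a call lost once replicate 4 of the day 11 0 h group was omitted. SLC11A1, SLC31A2, SLC15A4 and SLC37A2, which rose with it on day 11 at 24 h, were not called between the days. Markers of other cells differed as well. T and NK cell markers were higher on day 11 in 6 of 10 (5.26 to 5.64 on day 11, against 4.57 to 5.08 on day 4). Endothelial markers were higher in 5 and lower in 1 of 9 (7.18 to 7.45 on day 11, against 6.77 to 7.27 on day 4), and luteal markers higher in 5 and lower in 2 of 9. Fibroblast markers were higher in 2 and lower in 6 of 10 (10.12 to 10.53 on day 11, against 10.74 to 10.96 on day 4), pericyte and smooth muscle markers higher in 2 and lower in 4 of 9, and neutrophil markers higher in 1 and lower in 2 of 7. Of all genes 44.5% were called in this comparison, 17.9% higher and 26.5% lower. The part of these cell types in the SLC differences between the days was not tested.

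A direct test compared the 24 h change on day 11 with that on day 4. Of 176 SLC genes 52 differed (51 without day 4, 24 h replicate 1), beside 29.8% of all genes. The change on day 11 was higher for 26 and lower for 26, beside 14.8% and 15.0% of all genes. Of the 52, 47 were also called on day 11 at 24 h, a comparison whose arrays all enter this test. The others were SLC6A6, SLC11A2, SLC22A17, SLC27A4 and SLC39A4. That of SLC11A2 was not called once replicate 1 or 4 of the day 4 0 h group, or replicate 2 or 4 of the day 4 24 h group, or replicate 3 or 5 of the day 11 0 h group, or replicate 2, 3, 4 or 5 of the day 11 24 h group was omitted. With array weights SLC27A4 was not called, and SLC39A4 was not called once replicate 3 of the day 11 24 h group was omitted. The 24 h comparisons of the 2 days share no arrays, and 7 SLC genes were called in both. Of all genes 37.9% were called on day 11 and 7.76% on day 4. How many were called in both was not counted, so nothing is read from the 7. SLC20A2, SLC35C2 and SLC38A7 had the same direction, the day 4 calls of SLC35C2 and SLC38A7 being lost once replicate 2, 3, 4 or 5 of the day 4 0 h group, or replicate 2, 3 or 4 of the day 4 24 h group was omitted (SLC35C2) and once replicate 1, 2, 3 or 4 of the day 4 0 h group, or replicate 2, 3 or 4 of the day 4 24 h group was omitted (SLC38A7). Opposite directions were found for SLC1A5, SLC17A9, SLC29A1 and SLC5A11. The 4 h response differed for 2 SLC genes, SLC12A2 and SLC17A2, beside 1.40% of all genes (0.939% higher and 0.459% lower). The count was 0 when replicate 1 or 3 of the day 4 0 h group or replicate 5 of the day 4 4 h group was omitted, and 1 to 5 without any other 1 array. Without day 11, 4 h replicate 1 it was 3. A fit to the arrays of the 4 groups alone called 0 of the SLC genes in that comparison by limma, with 18 at an unadjusted p under 0.05, and the other settings called up to 6.

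**Figure D5:**
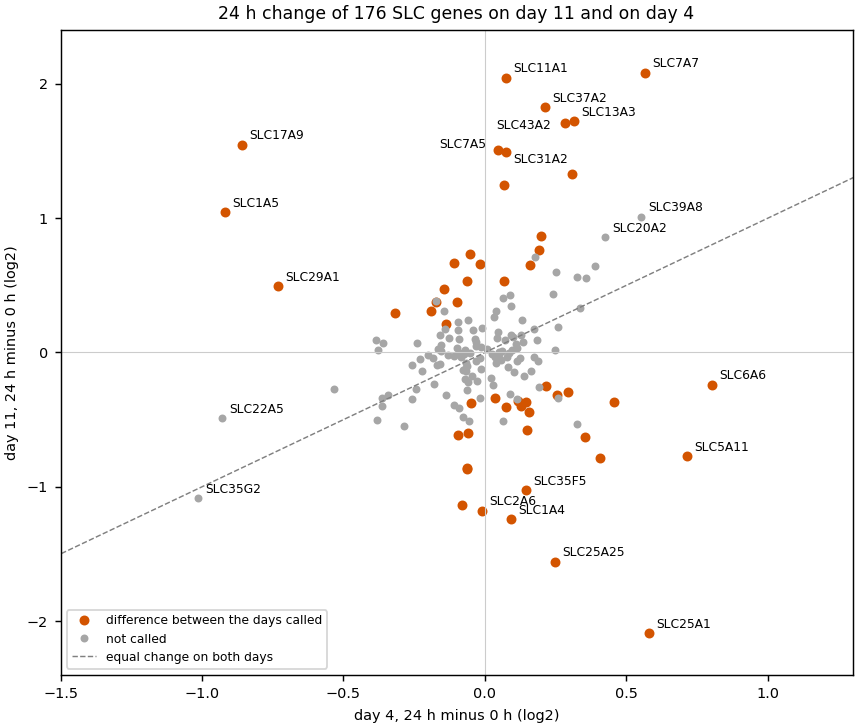
Log2 change from 0 to 24 h of the 176 SLC genes on day 11 (vertical axis) and on day 4 (horizontal axis); orange points are the genes whose change differed between the days. SLC17A9, SLC1A5 and SLC29A1 lie at the upper left, and SLC5A11 and SLC25A1 at the lower right.

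Other transporter genes were counted beside the SLC genes. Of 17 ABC transporter genes, which use ATP, 1 was lower and none higher on day 11 at 24 h, ABCA7 at -0.89. Of 7 SLCO genes, which carry organic anions, 2 were lower there, SLCO2A1 at -1.75 and SLCO4A1 at -1.33, where 37.9% of all genes were called. On day 11 at 4 h 1 of the 17 ABC genes was higher and 4 lower, where 23.2% of all genes were called. Of the 7 SLCO genes 0 were called there by limma, with 1 at an unadjusted p under 0.05. Between the days at 0 h, where 44.5% of all genes were called, 5 of the 17 ABC genes were higher and 2 lower on day 11. Of the 7 SLCO genes 3 were higher and 1 lower. No test compared these groups with the SLC genes.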

How the data were processed

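Each of 30 corpora lutea was read on 1 Affymetrix bovine array. The deposited unit is a log2 signal for each probe set, which the authors made with RMA, per the submitters' processing notes; its version, and which arrays were normalized together, are not given in the sources used here. They ran from 1.80 to 14.35 and were used as deposited. The number of arrays limits the precision. Of 24128 probe sets 112 controls were left out and 24016 tested. GEO's platform table names 1 symbol for 13292 of them, several for 86 and none for 10638, so an unnamed probe set may still belong to an SLC gene. Symbols were used as the annotation gives them. Genome positions and sequences were not used here.

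All arrays were fitted in limma 3.58.1 (R 4.3.3) with a mean per group, no block and empirical Bayes moderation (24 residual degrees of freedom). P-values were adjusted by Benjamini-Hochberg over all probe sets within each of 7 comparisons. Differences carry the standard error of that fit. Substrate classes were set by family number. Members, classes and lists were chosen with earlier results of these data known, and 1 family was added to the classes after the symbols were seen. Named are, per comparison and class, up to 4 called genes with the largest difference, the 10 brightest, the brightest of each class, a fixed panel and up to 3 genes of other lists; other members are named where a count or class is described. Labels give replicate numbers, but nothing that pairs heifers. The fit was tested on simulated data.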

Additional observations from a re-analysis of the deposited data

Results flagged for a closer look

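In 7 of the 252 groups of named genes examined, 1 of 5 arrays lay far from the others, or 2.78%, and chance alone gives about 1 group in 20. SLC46A2 on day 4 at 0 h had 4.21, where the other 4 arrays had 3.79 to 3.88 (replicate 3). SLC1A4 on day 4 at 0 h had 7.005, where the other 4 arrays had 6.63 to 6.73 (replicate 5), and SLC4A7 in that group had 7.84, where the other 4 arrays had 7.31 to 7.43 (replicate 1). SLC12A4 had a low array on day 4 at 24 h, 7.02, where the other 4 arrays had 7.15 to 7.19 (replicate 4). On day 11 at 4 h SLC12A4 also had a low array, 7.11, where the other 4 arrays had 7.45 to 7.57 (replicate 1, the array that stood apart in its EF1A control probe sets). SLC27A2 on day 11 at 0 h had 2.33, where the other 4 arrays had 2.76 to 2.83 (replicate 5). SLC52A2 in that group had 10.22, where the other 4 arrays had 10.65 to 10.78 (replicate 2).

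The 24 h change differed between the days, by the test of the difference itself, for the named SLC genes that follow, each with the change on day 11 minus that on day 4. It was more positive on day 11 for SLC17A9 by 2.41, SLC11A1 by 1.97, SLC1A5 by 1.96, SLC37A2 by 1.61, SLC7A7 by 1.52, SLC7A5 by 1.46, SLC43A2 by 1.42, SLC31A2 by 1.42, SLC13A3 by 1.41 and SLC29A1 by 1.23. Smaller positive differences were found for SLC8B1 by 1.18, SLC17A5 by 1.02, SLC4A7 by 0.79, SLC37A1 by 0.77, SLC27A4 by 0.61, SLC12A4 by 0.50, SLC66A3 by 0.49, SLC39A6 by 0.47, SLC3A2 by 0.47 and SLC4A1AP by 0.35. On the negative side it differed for SLC25A1 by -2.67, SLC25A25 by -1.81, SLC5A11 by -1.49, SLC52A2 by -1.19, SLC35F5 by -1.17, SLC2A6 by -1.17, SLC25A15 by -1.06 and SLC11A2 by -0.83. Smaller negative differences were found for SLC35A2 by -0.79, SLC35E2B by -0.72, SLC25A4 by -0.60, SLC27A5 by -0.59, SLC39A4 by -0.57, SLC9A5 by -0.51, SLC2A8 by -0.48 and SLC25A3 by -0.33. Some of these calls were lost on omitting 1 array, often any of several, or under another setting. SLC9A5 was not called with quantile normalization, robust moderation, array weights or the replicate block, or once replicate 1, 2, 3, 4 or 5 of the day 4 0 h group, or replicate 1, 2 or 4 of the day 4 24 h group, or replicate 1, 3 or 5 of the day 11 0 h group, or replicate 1, 2 or 3 of the day 11 24 h group was omitted. SLC2A8 was not called with array weights or once replicate 2, 4 or 5 of the day 4 0 h group, or replicate 2, 3, 4 or 5 of the day 4 24 h group, or replicate 1, 3 or 4 of the day 11 0 h group, or replicate 1, 2 or 4 of the day 11 24 h group was omitted. For SLC66A3 the call was lost once replicate 2, 3 or 4 of the day 4 0 h group, or replicate 1, 2 or 5 of the day 4 24 h group, or replicate 1, 4 or 5 of the day 11 0 h group, or replicate 1, 3 or 4 of the day 11 24 h group was omitted. For SLC11A2 it was lost once replicate 1 or 4 of the day 4 0 h group, or replicate 2 or 4 of the day 4 24 h group, or replicate 3 or 5 of the day 11 0 h group, or replicate 2, 3, 4 or 5 of the day 11 24 h group was omitted. SLC3A2 lost its call once replicate 4 of the day 4 0 h group, or replicate 3 or 5 of the day 4 24 h group, or replicate 2 or 5 of the day 11 0 h group, or replicate 1 of the day 11 24 h group was omitted. SLC39A6 lost it once replicate 1 of the day 4 0 h group, or replicate 4 of the day 4 24 h group, or replicate 1 or 4 of the day 11 0 h group was omitted, SLC35A2 once replicate 3 of the day 4 0 h group, or replicate 1 of the day 4 24 h group, or replicate 5 of the day 11 0 h group, or replicate 2 of the day 11 24 h group was omitted, and SLC39A4 once replicate 3 of the day 11 24 h group was omitted. SLC27A4 lost its call with array weights. The list holds up to 4 called genes of each class, the panel and the brightest genes, so other called genes are not in it. Left out are, for example, SLC6A6 and SLC1A4, the latter with -1.33. The second probe set of SLC1A4 differed by -0.57 and was not called. For the 4 h change the differences were 1.11 for SLC12A2 and 0.94 for SLC17A2, both lost on omitting single arrays as given with their 4 h values.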

How the results depend on the processing

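Counts of SLC genes called on day 11 at 24 h, between the days at 0 h and in the 24 h difference between the days stayed within 1.5 times of their main values under the 9 alternatives and without any 1 array. Leaving out 1 array gave 66 to 71 of 72, 55 to 66 of 66 and 47 to 55 of 52, and 25 to 31 of 29 on day 11 at 4 h, 5 to 6 of 6 on day 4 at 4 h, 1 to 14 of 9 on day 4 at 24 h and 0 to 5 of 2 in the 4 h difference. With array weights the counts were 16 on day 4 at 4 h, 19 on day 4 at 24 h and 6 in the 4 h difference. A fit to the arrays of the comparison alone gave 11, 0 (33 at an unadjusted p under 0.05, limma) and 0 (18), and 17 on day 11 at 4 h. At an adjusted p under 0.01 the counts were 1 on day 4 at 24 h, 15 on day 11 at 4 h and 0 in the 4 h difference (15 at an unadjusted p under 0.05). The 4 h difference had 5 with quantile normalization, 4 with medians subtracted, 4 without the dimmest 30% of probe sets and 5 with the replicate block. The cause of these shifts was not tested. With medians subtracted the split was 5 higher and 1 lower on day 4 at 4 h (main 6 and 0), and 1 and 5 on day 4 at 24 h (main 4 and 5); quantile normalization gave 5 and 1 at 4 h. SLC25A5 between the days reversed with the mean of its probe sets, at -0.27, since its probe sets disagreed. Of 155 named gene results 99 were called under all alternatives run, 55 were lost under 1 or more and 1 reversed. Deviations of same-numbered arrays from different groups correlated at a median of 0.05 (75 pairs, 24 over 0.1). The median was -0.01 for arrays of different numbers (300 pairs), and 14 of 30 arrays correlated best with an array of their own number. Whether arrays of 1 number share a source of variation was not tested. Each heifer gave 1 array and the labels pair no heifers, so the main fit has no block. The replicate block changed no other count by over 1.5 times. Few arrays and dim probe sets, 43 of 176, limit what was detectable.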
